A study of Rattus norvegicus with 20 samples.

Results

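Calbindin and the other genes of distal calcium reabsorption were followed in whole kidneys of rats given a calcineurin inhibitor or its vehicle. The set held 7 genes, Calb1, Slc8a1, Trpv5, S100g, Atp2b1, Atp2b4 and Vdr, chosen by gene name and matched between the deposited tables by Ensembl identifier, of 32521 genes listed in both. All 7 carried the same name in both tables and all 7 passed the filter on low values in both. The animals were adult male Wistar rats, labelled WT, 10 to 12 weeks old, and every group received its infusion for 28 days from an osmotic minipump under the skin. Cyclosporine A (n = 4) was compared with saline (n = 4). Tacrolimus, dosed to a trough of 3.5 ng/ml (n = 6), was compared with a mixture of 25% DMSO and 75% polyethylene glycol, called the DMSO/PEG vehicle (n = 6). Each drug and its vehicle came in a table of their own, and drug, vehicle and table cannot be told apart when changes are set against each other. The labels number the libraries within a group but do not identify the animal behind each, so p-values measure the spread between libraries. RNA came from the entire kidney, in which fewer cells of a type and less RNA per cell cannot be told apart.

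Calcium that has escaped the proximal nephron and the thick ascending limb is recovered across the cells of the late distal convoluted tubule and the connecting tubule. It enters through the apical channel TRPV5, is carried through the cell by calbindin-D28k (Calb1) and, in rodents, calbindin-D9k (S100g), and leaves at the basolateral side through the sodium-calcium exchanger NCX1 (Slc8a1) and the plasma membrane calcium pumps PMCA1 (Atp2b1) and PMCA4 (Atp2b4). The vitamin D receptor (Vdr) and parathyroid hormone set the capacity of this route. Both drugs inhibit calcineurin, the phosphatase that activates NFAT transcription factors, whose DNA-binding core is GGAAA.

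With tacrolimus, transcripts of the calcium buffer, the sodium-calcium exchanger and the entry channel fell together: Calb1 fell 15.1-fold, Slc8a1 4.59-fold and Trpv5 2.12-fold in mean FPKM (fragments scaled by gene length and library size), while S100g, Atp2b1, Atp2b4 and Vdr were not called changed. With cyclosporine A, Calb1 fell 3.67-fold in FPKM rescaled between libraries and was the 1 member called, a call lost when any of 5 of the 8 libraries was left out. On FPKM as deposited its fall was 9.60-fold. The changes of Calb1, Slc8a1 and Trpv5 differed between the tables by the test of the difference, in which drug, vehicle and table cannot be told apart. The call for Trpv5 was lost without saline replicate 1 or 4. For Slc8a1, low in the saline libraries, an equal fold with both drugs would already give 1.27 of the difference of 1.76 on log2(FPKM + 1). Genes were called where the Benjamini-Hochberg adjusted p of limma, fitted on log2(FPKM + 1) over all tested genes, was under 0.05. Tacrolimus called 3 of 7 members, all lower, where 0.304% of all 15479 genes tested were called and 0.284% were called lower. Cyclosporine A called 1 of 7, lower, where 0.609% of 13454 genes were called and 0.282% were called lower.

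The sequence around an annotated start is shown for Slc8a1 and Trpv5, because they are the members called lower with tacrolimus for which RefSeq's table of promoter windows (assembly GRCr8) held an entry. Windows were matched by symbol for 5 of the 7 members, Calb1 and S100g having no entry. Each window runs 5′ to 3′ from 250 bases before to 50 bases after 1 annotated start, and capitals mark GGAAA or its reverse complement TTTCC.
Slc8a1, chr6:19023309-19023608, plus strand: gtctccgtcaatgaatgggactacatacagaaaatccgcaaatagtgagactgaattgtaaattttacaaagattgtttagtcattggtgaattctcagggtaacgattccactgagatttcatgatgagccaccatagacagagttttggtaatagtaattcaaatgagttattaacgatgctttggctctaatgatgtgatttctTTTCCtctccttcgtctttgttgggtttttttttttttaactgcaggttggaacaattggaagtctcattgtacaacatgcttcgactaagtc
Trpv5, chr4:71529333-71529632, minus strand: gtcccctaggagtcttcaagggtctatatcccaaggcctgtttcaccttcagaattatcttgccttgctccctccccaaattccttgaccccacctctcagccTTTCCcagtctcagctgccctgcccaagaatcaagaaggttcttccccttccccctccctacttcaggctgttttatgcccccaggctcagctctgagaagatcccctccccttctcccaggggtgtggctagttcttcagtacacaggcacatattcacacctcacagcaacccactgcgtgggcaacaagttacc
The Slc8a1 window is 36.3% G or C and holds the NFAT core 1 time, as TTTCC. The Trpv5 window is 54.3% G or C and also holds it 1 time, as TTTCC. Among members not called with tacrolimus, the window of Atp2b1 holds it 2 times, that of Atp2b4 1 time and that of Vdr 0 times. Of all 33469 windows in that table, 62.7% hold GGAAA on either strand, so a match is common. Neither window holds AGGTCA, a half-site of the vitamin D receptor, on either strand, and 16.2% of all windows do. Neither holds TATAAA on either strand, which 14.2% of all windows hold. Both windows lie inside the span that RefSeq gives the gene, 18975498 to 19299704 for Slc8a1 and 71503085 to 71531134 for Trpv5. Neither therefore shows the sequence upstream of the whole gene. GRCr8 lists Slc8a1 on the plus strand and the deposited rn6 tables list it on the minus strand. Positions and strands of the windows are those of GRCr8. A match or its absence describes these letters only.

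Depth was similar across libraries, with 30467652 to 34307942 fragments assigned to genes per library for cyclosporine A and saline, and 31670202 to 39358485 for tacrolimus and DMSO/PEG. What differed was the share taken by genes of the mitochondrial genome: 59.8% ± 7.97 (SD, n = 4) in saline libraries and 84.7% ± 4.68 (SD, n = 4) with cyclosporine A, against 11.9% ± 1.13 (SD, n = 6) with DMSO/PEG and 12.4% ± 1.88 (SD, n = 6) with tacrolimus. Nuclear genes were left with 2905422 to 6548795 fragments per library with cyclosporine A and 10282872 to 17255791 with saline. FPKM of that table as deposited therefore moved nearly every gene down with the drug (median log2 change -0.89), and values were rescaled by median-of-ratios size factors over nuclear genes, after which the median was 0.00. The mitochondrial share and the drug cannot be told apart in that table. Values of the tacrolimus table were used as deposited. Of the kidney cell type markers examined, each was above 0 in some library of every group. The 8 proximal tubule markers summed to 183 to 290 rescaled FPKM in saline libraries and to 3046 to 3542 FPKM in DMSO/PEG libraries, so levels were not compared between tables.

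Calb1 (ENSRNOG00000007456, rn6 chromosome 5, 29538380 to 29562773, plus strand) was the most abundant member in both vehicle groups. In the DMSO/PEG libraries it ranged from 171 to 235 FPKM with a median of 198, and with tacrolimus from 12.3 to 14.9 FPKM with a median of 12.9. The 6 tacrolimus libraries lay close together and far below the lowest vehicle library. The vehicle mean was 198 ± 27.9 FPKM (SD, n = 6), and the tacrolimus mean of 13.1 ± 0.921 (SD, n = 6) was 6.62% of the vehicle level. The log2 change was -3.81 (SE 0.08, limma adjusted p = 1.73e-11), which ranked 1 among all 15479 genes by p. These values rested on 732 to 14420 Calb1 fragments per library.

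In the saline libraries Calb1 was at 37.5, 62.0, 69.6 and 53.3 rescaled FPKM (replicates 1 to 4), and with cyclosporine A at 13.1, 9.55, 13.7 and 24.3. The groups did not overlap, and saline replicate 1 and cyclosporine A replicate 4 were the libraries nearest to each other. Of all genes tested in that comparison, 6.06% had every drug library below every vehicle library. The means were 55.6 ± 13.8 (SD, n = 4) and 15.2 ± 6.35 (SD, n = 4), a log2 change of -1.85 (SE 0.27, 95% interval -2.44 to -1.26, limma adjusted p = 0.0252). On deposited FPKM the fall was 9.60-fold, from 87.0 ± 14.0 (SD, n = 4) to 9.06 ± 1.30 (SD, n = 4), and its log2 change of -3.12 (limma adjusted p = 6.35e-06) ranked 1 by p among all genes in that scaling. The call on rescaled values was lost without saline replicate 2 (adjusted p = 0.0679), 3 (0.0851) or 4 (0.0936) or cyclosporine A replicate 1 (0.0766) or 3 (0.0563), although the log2 change stayed between -2.09 and -1.67 whichever library was left out. It was also lost without a filter on low values (adjusted p = 0.0775) and when the replicate number was fitted as a block.

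**Figure D1:**
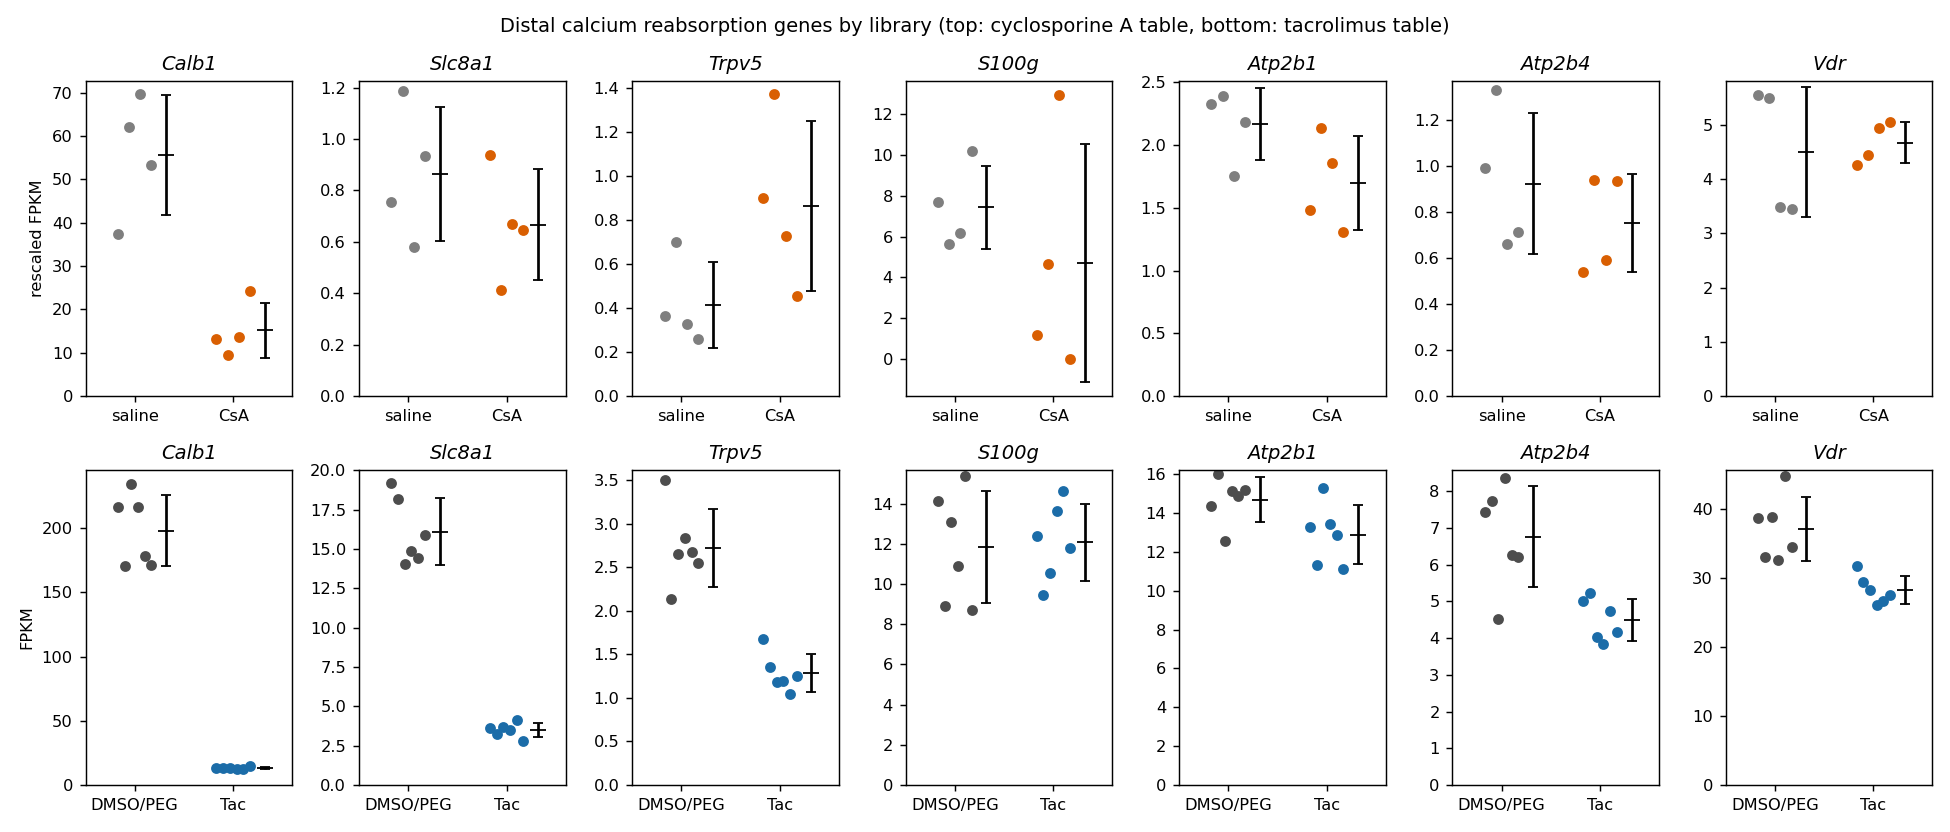
Each point is 1 library; the upper row gives rescaled FPKM of the saline and cyclosporine A (CsA) libraries, the lower row deposited FPKM of the DMSO/PEG and tacrolimus (Tac) libraries, and the bar is the mean with its SD (n = 4 or 6). Calb1 of all 6 tacrolimus libraries lies between 12.3 and 14.9 FPKM, below a vehicle range of 171 to 235, and S100g of the cyclosporine A libraries spreads from 0 to 12.9.

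S100g (ENSRNOG00000004222, chromosome X, 33443186 to 33445709, plus strand), the other calbindin of the distal cell, did not follow Calb1 with tacrolimus. Vehicle libraries ranged from 8.73 to 15.4 FPKM with a median of 11.99, and tacrolimus libraries from 9.45 to 14.6 with a median of 12.08. The ranges almost coincided, and the log2 change was 0.04 (95% interval -0.27 to 0.35, limma adjusted p = 0.974). The lower bound of that interval lies far above the log2 change of Calb1. With saline S100g was at 7.70, 5.61, 6.19 and 10.2 rescaled FPKM, and with cyclosporine A at 1.18, 4.67, 12.9 and 0. Cyclosporine A replicate 4, which had the fewest nuclear fragments, held no S100g fragment, whereas replicate 3 exceeded every saline library. The log2 change of -1.19 was not called (95% interval -2.67 to 0.30, limma adjusted p = 0.419), and it ranged from -1.84 without replicate 3 (limma adjusted p = 0.131) to -0.57 without replicate 4 (0.632).

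Trpv5 (ENSRNOG00000015394, chromosome 4, 70947717 to 70974006, minus strand), the entry channel, was the least abundant member in both vehicle groups. It ranged from 2.13 to 3.50 FPKM with a median of 2.66 with DMSO/PEG, and from 1.04 to 1.67 with a median of 1.22 with tacrolimus. No tacrolimus library reached the lowest vehicle library. The means of 2.72 ± 0.446 (SD, n = 6) and 1.28 ± 0.216 (SD, n = 6) gave a log2 change of -0.70 (SE 0.09, limma adjusted p = 0.00162), a scale on which the added 1 understates the change of a gene this low. Under saline Trpv5 was at 0.363, 0.699, 0.329 and 0.259 rescaled FPKM, and under cyclosporine A at 0.899, 1.37, 0.727 and 0.458. The groups overlapped in saline replicate 2 and cyclosporine A replicate 4. The log2 change of 0.39 (95% interval 0.03 to 0.75) did not pass (limma adjusted p = 0.275), it was -0.05 on deposited FPKM (adjusted p = 0.776), and it was 1.25 with voom on recovered fragments, which adds no 1 (0.136). The rescaled mean was 2.09-fold that of saline. Only 21 to 127 Trpv5 fragments per library stood behind these values. Trpv6, the related calcium channel, was at 0.159 FPKM with DMSO/PEG and 0.184 with tacrolimus, a log2 change of 0.03 (limma adjusted p = 0.927), and was too low to be tested in the cyclosporine A table.

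Slc8a1 (ENSRNOG00000008479, chromosome 6, 4258991 to 4520604, minus strand), which extrudes calcium in exchange for sodium, ranged from 14.1 to 19.2 FPKM with a median of 15.4 with DMSO/PEG and from 2.80 to 4.14 with a median of 3.57 with tacrolimus. The ranges stood far apart. The means were 16.1 ± 2.13 (SD, n = 6) and 3.50 ± 0.449 (SD, n = 6), and the log2 change of -1.92 (SE 0.09, limma adjusted p = 1.56e-07) ranked 2 by p, after Calb1. Under saline Slc8a1 was at 0.757, 1.19, 0.580 and 0.932 rescaled FPKM, and under cyclosporine A at 0.940, 0.412, 0.670 and 0.648. Here the groups overlapped, and the log2 change of -0.16 (95% interval -0.47 to 0.15, limma adjusted p = 0.625) was not called and lay between -0.24 and -0.08 with a library left out. It rested on 25 to 149 fragments per library, and on deposited FPKM it was -0.73 (adjusted p = 0.00107).

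Neither calcium pump was called with tacrolimus or, on rescaled FPKM, with cyclosporine A. Atp2b1 (ENSRNOG00000004026, chromosome 7, 41114697 to 41220579, plus strand) averaged 14.7 ± 1.17 FPKM (SD, n = 6) with DMSO/PEG and 12.9 ± 1.52 (SD, n = 6) with tacrolimus, a log2 change of -0.18 (95% interval -0.35 to -0.01, limma adjusted p = 0.517). Atp2b4 (ENSRNOG00000003031, chromosome 13, 50091430 to 50153823, plus strand) averaged 6.76 ± 1.38 (SD, n = 6) and 4.51 ± 0.572 (SD, n = 6), a 1.50-fold lower mean and a log2 change of -0.48 (95% interval -0.74 to -0.22, limma adjusted p = 0.147). For both pumps the tacrolimus and vehicle ranges overlapped. Atp2b4 was called without DMSO/PEG replicate 3 (log2 change -0.57, limma adjusted p = 0.0228), the vehicle library lowest in it at 4.53 FPKM. With cyclosporine A, rescaled Atp2b1 averaged 1.70 ± 0.373 (SD, n = 4) against 2.17 ± 0.287 (SD, n = 4) with saline, a log2 change of -0.24 (95% interval -0.56 to 0.08, limma adjusted p = 0.454). Rescaled Atp2b4 averaged 0.753 ± 0.214 (SD, n = 4) against 0.925 ± 0.307 (SD, n = 4), a log2 change of -0.13 (95% interval -0.46 to 0.20, limma adjusted p = 0.718) that lay between -0.20 and -0.03 with a library left out.

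Vdr (ENSRNOG00000054420, chromosome 7, 139342063 to 139394166, minus strand), the nuclear receptor for active vitamin D, ranged from 32.6 to 44.7 FPKM with a median of 36.5 with DMSO/PEG and from 26.0 to 31.7 with a median of 27.9 with tacrolimus. Every tacrolimus library was below every vehicle library, as for Calb1, Slc8a1 and Trpv5, where 0.672% of all genes tested showed this. The means of 37.0 ± 4.61 (SD, n = 6) and 28.2 ± 2.08 (SD, n = 6) gave a log2 change of -0.37 (95% interval -0.54 to -0.21), which did not pass over all genes (limma adjusted p = 0.0811). Saline libraries were at 5.55, 5.50, 3.49 and 3.44 rescaled FPKM and cyclosporine A libraries at 4.26, 4.43, 4.94 and 5.04. The drug libraries lay within the spread of the saline ones, and the log2 change was 0.07 (95% interval -0.30 to 0.43, limma adjusted p = 0.882).

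On FPKM as deposited, 6 of 7 members were called lower with cyclosporine A, where 81.1% of all genes tested were called and 80.9% were called lower. Besides Calb1 and Slc8a1 the log2 changes were -2.04 for S100g (limma adjusted p = 0.00193), -1.08 for Atp2b1 (0.00102), -0.72 for Atp2b4 (0.00158) and -1.02 for Vdr (0.00267). Apart from Calb1 and S100g, the called members changed by -1.08 to -0.72, where the median of all genes in that scaling was -0.89, and Trpv5 was the member not called. In 5 members, Calb1, Slc8a1, Atp2b1, Atp2b4 and Vdr, every cyclosporine A library was below every saline library on deposited FPKM, which held for 67.9% of all genes tested.

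**Figure D2:**
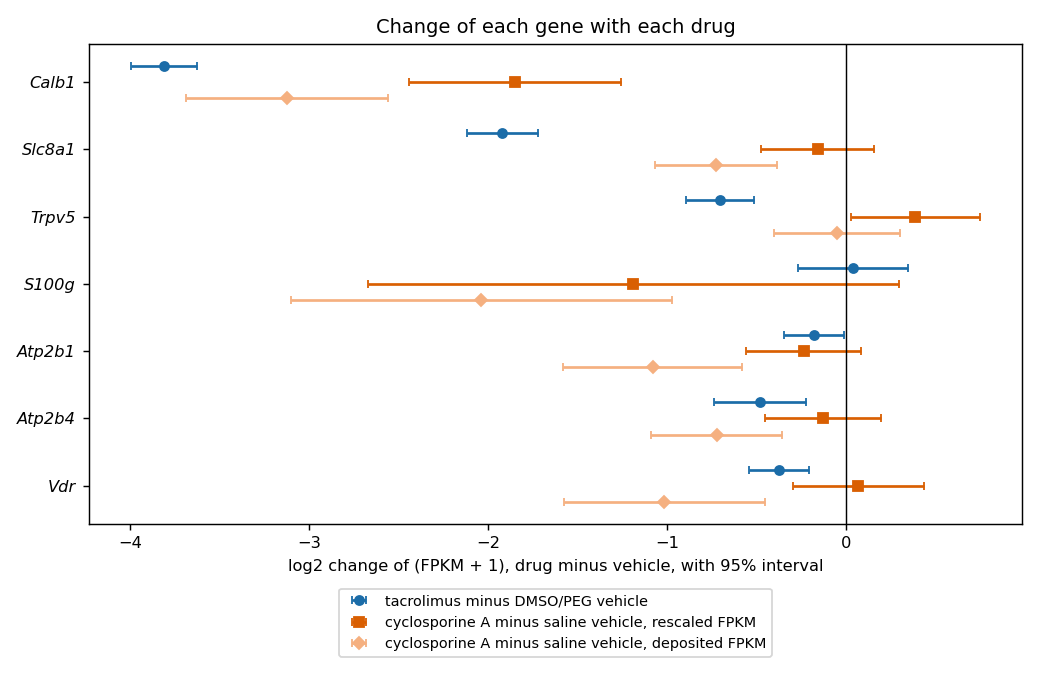
Points give each gene's log2 change of (FPKM + 1), drug minus vehicle, with its 95% interval from limma, for tacrolimus (circles), cyclosporine A on rescaled FPKM (squares) and cyclosporine A on deposited FPKM (diamonds). With tacrolimus the intervals of all members but S100g lie wholly below 0, those called being Calb1 (-3.81), Slc8a1 (-1.92) and Trpv5 (-0.70), and with cyclosporine A on rescaled FPKM that of Calb1 (-1.85) alone does.

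The change with cyclosporine A was then set against the change with tacrolimus, each fitted in its own table. On rescaled values the difference was called for 3 of 7 members, all with the lower change under tacrolimus, where 1.64% of the 13390 genes tested in both tables were called and 0.874% were called above 0. The difference was 1.96 (SE 0.28, limma-based adjusted p = 0.00875) for Calb1, 1.76 (SE 0.17, 7.06e-05) for Slc8a1, which ranked 1 by p, and 1.09 (SE 0.18, 0.012) for Trpv5. The differences of Vdr (0.44, adjusted p = 0.246), Atp2b4 (0.35, 0.384), Atp2b1 (-0.06, 0.908) and S100g (-1.23, 0.423) were not called. With deposited FPKM in the cyclosporine A table, 75.2% of all genes were called, and the differences of Calb1 (0.68, adjusted p = 0.0332), Slc8a1 (1.19, 2.59e-04) and Trpv5 (0.65, 0.00389) kept their sign and call, whereas S100g (-2.08), Atp2b1 (-0.90) and Vdr (-0.64) were also called, with the opposite sign. The added 1 limits how far a low gene can fall: from its saline mean Slc8a1 could change by no more than -0.90 and Trpv5 by no more than -0.50, and an equal fold with both drugs would already give a difference of 1.27 for Slc8a1, 0.46 for Trpv5 and 0.22 for Calb1. Scales that compress low genes less were therefore read as well. With an added 0.1 the differences were 1.98 for Calb1 (limma-based adjusted p = 0.0135), 1.83 for Slc8a1 (0.0263) and 1.92 for Trpv5 (0.0412). With voom on recovered fragments, which adds no 1 and was chosen after seeing the data, they were 1.92 (limma-based adjusted p = 0.00197), 1.78 (0.0287) and 2.32 (0.00989). The call for Trpv5 on rescaled values was lost without saline replicate 1 (adjusted p = 0.0506) or 4 (0.0655).

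The order of the members by FPKM, a level per length, also differed between groups. With DMSO/PEG it ran Calb1, Vdr, Slc8a1, Atp2b1, S100g, Atp2b4, Trpv5, and the neighbours whose ranges overlapped were Slc8a1 with Atp2b1 and Atp2b1 with S100g. With tacrolimus it ran Vdr, Calb1, Atp2b1, S100g, Atp2b4, Slc8a1, Trpv5, and Vdr exceeded Calb1 in 6 of 6 libraries. There Calb1, Atp2b1 and S100g overlapped in sequence, as did Atp2b4 and Slc8a1. With saline the order was Calb1, S100g, Vdr, Atp2b1, Atp2b4, Slc8a1, Trpv5, the last 3 overlapping in sequence. With cyclosporine A it was Calb1, S100g, Vdr, Atp2b1, Trpv5, Atp2b4, Slc8a1, and the only neighbours whose ranges stood apart were Vdr and Atp2b1. In the cyclosporine A table the values of Slc8a1, Trpv5, Atp2b1 and Atp2b4 were made with a shorter gene length than the one listed, which touches this order but not the comparison of a gene between groups.

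The members were next read against other genes of the same nephron segment. Of 13 markers of the distal convoluted tubule, 6 were called lower and 0 higher with tacrolimus, and their median log2 change was -0.30 against 0.00 for all genes. The thiazide-sensitive sodium-chloride cotransporter Slc12a3 averaged 102 ± 5.50 FPKM (SD, n = 6) with DMSO/PEG and 43.3 ± 9.31 (SD, n = 6) with tacrolimus, and its log2 change was -1.24 (limma adjusted p = 1.59e-04). The other 5 were the kinase Wnk1 (-0.81), the magnesium channel Trpm6 (-0.85), the growth factor Egf (-0.93), Cnnm2 (-0.59), linked to magnesium handling, and Klhl3 (-0.88), an adaptor for the degradation of WNK kinases. The summed level of the 13 markers was 5101 to 7558 FPKM in DMSO/PEG libraries and 4441 to 5178 in tacrolimus libraries, most of it Fxyd2 (mean 5210 with DMSO/PEG), a regulator of the sodium pump that was not called. Without Fxyd2 the sum was 535 to 630 FPKM with DMSO/PEG and 381 to 499 with tacrolimus. With cyclosporine A, limma called 0 of the 13 on rescaled FPKM, 1 had an unadjusted p under 0.05, and their summed level without Fxyd2 was 53.4 to 81.4 rescaled FPKM with saline and 48.6 to 78.0 with the drug. Slc12a3 was at 9.74 ± 4.93 rescaled FPKM (SD, n = 4) with saline and 12.2 ± 6.03 (SD, n = 4) with cyclosporine A, a log2 change of 0.27 (limma adjusted p = 0.807) that was -0.89 on deposited FPKM (0.0683). On deposited FPKM 10 of the 13 were called lower with cyclosporine A, with a median of -0.89, where 80.9% of all genes were called lower and their median was also -0.89.

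Each member was therefore also expressed as its log2 FPKM minus the mean log2 FPKM of the 13 markers in the same library, a ratio that does not depend on library scaling. With tacrolimus Calb1 went from 2.72 ± 0.21 (SD, n = 6) above the markers to -0.66 ± 0.12 (SD, n = 6), a change of -3.39 (exact 2-sided permutation p = 0.00216, adjusted p = 0.0141 over 13 such tests). Slc8a1 changed by -1.68 (exact permutation adjusted p = 0.0141) and Trpv5 by -0.56 (0.0169), so all 3 fell further than the markers' mean. S100g changed by 0.57 and Atp2b1 by 0.33 relative to the markers (exact permutation adjusted p = 0.0141 for each), both upwards. These ratios do not show a rise of either gene. The mean FPKM with tacrolimus was 102% of vehicle for S100g and 87.7% for Atp2b1, and 12 of the 13 markers had a log2 change below 0. Atp2b4 changed by -0.04 (exact permutation adjusted p = 0.766) and Vdr by 0.14 (0.245). The call for Trpv5 was lost against the markers' median (-0.38, exact permutation adjusted p = 0.109), and against Slc12a3 alone its ratio changed by 0.17 (0.478). Against Slc12a3 alone, which itself fell with tacrolimus, the ratios of Vdr (0.87, exact permutation adjusted p = 0.00563) and Atp2b4 (0.69, 0.0328) did pass, both upwards. With cyclosporine A the ratio of Calb1 went from 3.65 ± 0.68 (SD, n = 4) to 1.77 ± 0.56 (SD, n = 4), a change of -1.88. Its exact permutation p of 0.0286 is the smallest that 4 against 4 can give, and the adjusted p was 0.0619. Trpv5 changed by 1.10 (exact permutation p = 0.0571, adjusted p = 0.106), the other 4 members tested had adjusted p from 0.206 to 0.464, and S100g was left out because 1 library held none.

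**Figure D3:**
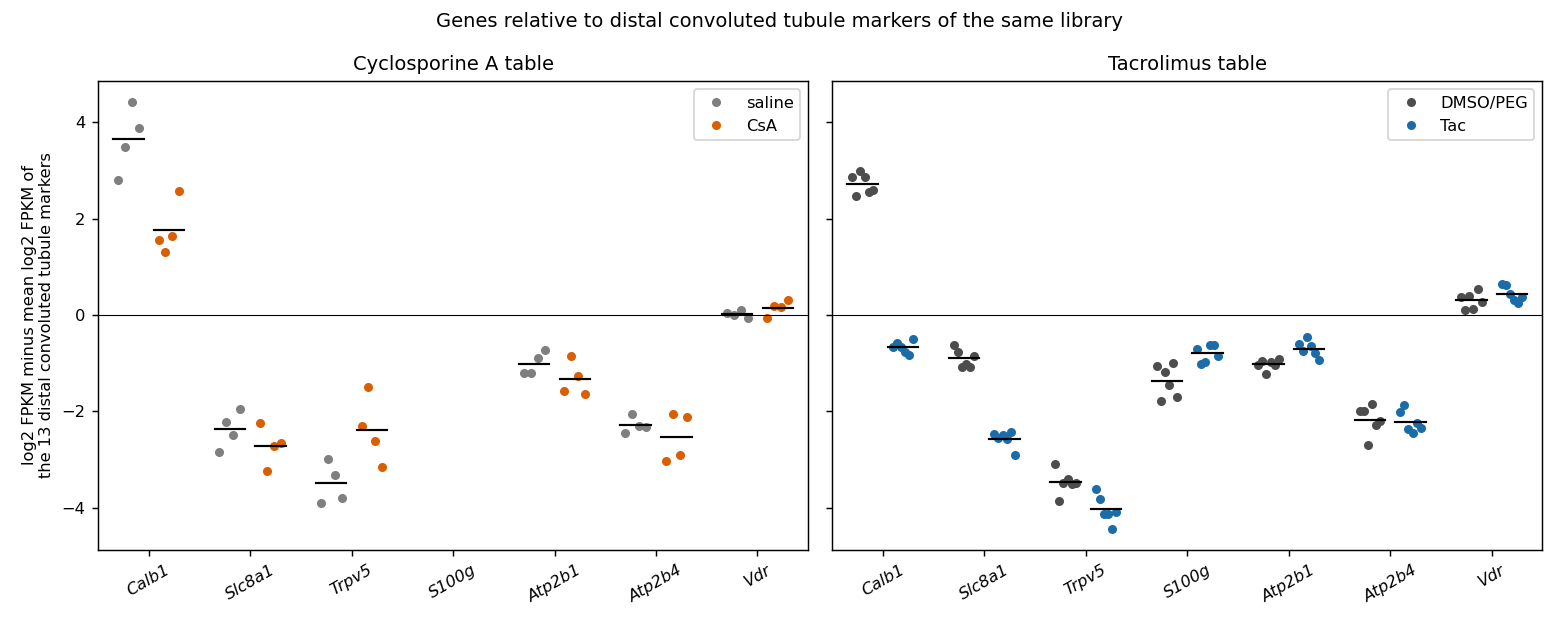
Each point is 1 library, the vertical axis is the gene's log2 FPKM minus the mean log2 FPKM of the 13 distal convoluted tubule markers, and the line is the group mean. In the tacrolimus table Calb1 passes from a mean of 2.72 to -0.66 and S100g from -1.36 to -0.80; S100g is not drawn for cyclosporine A because 1 library was at 0.

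Markers of the connecting tubule and principal cell, where much of Calb1 is also made, were called in neither direction, 0 of 10 in limma with tacrolimus and 0 of 10 with cyclosporine A on rescaled FPKM (unadjusted p under 0.05 for 1 with tacrolimus and 5 with cyclosporine A). Their median log2 change was -0.07 with tacrolimus and 0.29 with cyclosporine A, and their summed level was 485 to 623 FPKM with DMSO/PEG and 489 to 570 with tacrolimus. With cyclosporine A 10 of 10 log2 changes were above 0 on rescaled FPKM, whereas 8 of 10 were called lower on deposited FPKM (median -0.95), where 80.9% of all genes were. Of 8 intercalated cell markers 0 were called with tacrolimus or, on rescaled FPKM, with cyclosporine A (limma, unadjusted p under 0.05 for 1 with tacrolimus and 0 with cyclosporine A), and 7 were called lower on deposited FPKM, where again 80.9% of all genes were. Proximal tubule, podocyte, endothelial, smooth muscle and leukocyte markers gave no call with tacrolimus, with list medians from -0.12 to 0.05. With cyclosporine A on rescaled FPKM these 5 lists gave 1 call, a rise of the glucose transporter Slc5a2 by 0.94 (limma adjusted p = 0.0382), at levels of 0.282 ± 0.170 rescaled FPKM (SD, n = 4) with saline and 1.47 ± 0.430 (SD, n = 4) with the drug, a call lost in 7 of 8 cases when 1 library was left out (all but cyclosporine A replicate 4; adjusted p up to 0.130). Of the 8 proximal tubule markers 3 had a log2 change above 0 and 5 below (median -0.05), and 4 had an unadjusted limma p under 0.05. The medians were 0.47 for podocyte (2 with unadjusted p under 0.05), -0.10 for endothelial (0), 0.24 for smooth muscle (1) and -0.11 for leukocyte markers (0). On deposited FPKM 5 of 8 proximal tubule, 1 of 5 podocyte, 5 of 5 endothelial, 2 of 5 smooth muscle and 3 of 3 leukocyte markers were called lower, where 80.9% of all genes were. Of 5 adipocyte markers, Ucp1 fell with tacrolimus by 3.33 on the log2 scale (limma adjusted p = 8.42e-04), and the list summed to 34.4 to 85.5 FPKM with DMSO/PEG and 23.5 to 56.5 with tacrolimus.

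Relatives of the calcium transporters, 16 genes that include other pumps, exchangers, calmodulins and the TRPV5 partners S100a10 and Anxa2, showed no call in limma with tacrolimus (0 of 14 tested, 3 with unadjusted p under 0.05) or cyclosporine A (0 of 10 tested, 4 with unadjusted p under 0.05). Their median log2 changes were -0.02 and 0.06. Pvalb, a calcium buffer of the early distal convoluted tubule, was listed at 0 in all 20 libraries. On deposited FPKM 7 of the 10 were called lower with cyclosporine A, against 80.9% of all genes, with a median of -0.86 against -0.89 for all genes.

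Genes of calcium and vitamin D hormone action likewise gave 0 calls in limma with tacrolimus (16 tested, 3 with unadjusted p under 0.05, median log2 change 0.01) and 0 with cyclosporine A on rescaled FPKM (15 tested, 4 with unadjusted p under 0.05, median -0.08), and on deposited FPKM 14 of the 15 were called lower (median -1.25), where 80.9% of all genes were called lower and the median was -0.89. Cyp24a1, the enzyme that inactivates vitamin D and a target of Vdr, averaged 19.1 ± 10.4 FPKM (SD, n = 6) with DMSO/PEG and 48.2 ± 14.6 (SD, n = 6) with tacrolimus, with ranges of 2.80 to 31.8 and 27.8 to 67.8 that overlapped. Its log2 change of 1.50 (limma adjusted p = 0.247) was not called, and with cyclosporine A it was -0.54 (0.559). Cyp27b1, the enzyme that activates vitamin D, averaged 0.867 ± 0.350 FPKM (SD, n = 6) and 2.04 ± 1.01 (SD, n = 6) with tacrolimus (log2 change 0.65, limma adjusted p = 0.368), and was not tested in the cyclosporine A table. Kl, the FGF23 coreceptor klotho made in the distal tubule, averaged 63.9 ± 2.40 FPKM (SD, n = 6) with DMSO/PEG and 52.5 ± 6.55 (SD, n = 6) with tacrolimus, a log2 change of -0.29 (limma adjusted p = 0.147). With cyclosporine A the log2 change of Kl was -0.34 (limma adjusted p = 0.512). Pth1r, the parathyroid hormone receptor, changed by -0.01 with tacrolimus (limma adjusted p = 0.994) and 0.05 with cyclosporine A (0.941), and Casr, the calcium-sensing receptor, by 0.15 (0.792) and 0.02 (0.943). The difference between the drugs was called for 1 of the 15 genes tested in both, the FGF receptor Fgfr1 (-0.85, limma-based adjusted p = 0.0384), a call lost in 6 of 20 cases when 1 library was left out (saline replicates 1 to 4, cyclosporine A replicates 1 and 3; adjusted p up to 0.124).

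In the thick ascending limb, where calcium passes between the cells, 0 of 9 genes were called with tacrolimus (limma, 1 with unadjusted p under 0.05, median log2 change -0.07). With cyclosporine A 2 of the same 9 were called lower on rescaled FPKM, the claudin Cldn3 (-0.86, limma adjusted p = 0.0354) and uromodulin, Umod (-1.36, 0.0491). The call was lost in 6 of 8 cases for Cldn3 (all but cyclosporine A replicates 2 and 4; adjusted p up to 0.120) and in 8 of 8 for Umod (0.0560 to 0.130) when 1 library was left out, and on deposited FPKM 9 of 9 were called lower, where 80.9% of all genes were. Umod averaged 327 ± 101.0 rescaled FPKM (SD, n = 4) with saline and 127 ± 38.2 (SD, n = 4) with cyclosporine A. The difference between the drugs was called for Cldn3 (-0.74, limma-based adjusted p = 0.0455), the sodium-potassium-chloride cotransporter Slc12a1 (-0.83, 0.0481) and Umod (-1.16, 0.0498), each lower with cyclosporine A than with tacrolimus, which is the opposite sign to Calb1, Slc8a1 and Trpv5. Leaving out 1 library ended these calls in 12 of 20 cases for Cldn3, 11 for Slc12a1 and 15 for Umod. Among the distal convoluted tubule markers the difference was called for Wnk1 (0.82, limma-based adjusted p = 0.0163), Trpm6 (0.79, 0.0252) and Klhl3 (1.12, 0.029). An equal fold with both drugs would already give 0.11, 0.43 and 0.51 on this scale, and with voom Wnk1 kept its call (0.86, 0.0049) whereas Trpm6 (0.90, 0.0967) and Klhl3 (1.56, 0.121) did not. The call for Wnk1 on rescaled FPKM was lost without saline replicate 1, 3 or 4 (adjusted p up to 0.0655), and its difference was -0.34 with deposited FPKM (0.263). The call for Trpm6 was lost when any of saline replicates 1 to 4 was left out (limma-based adjusted p up to 0.0949). That for Klhl3 was lost without saline replicate 1, 3 or 4 (up to 0.101).

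**Figure D4:**
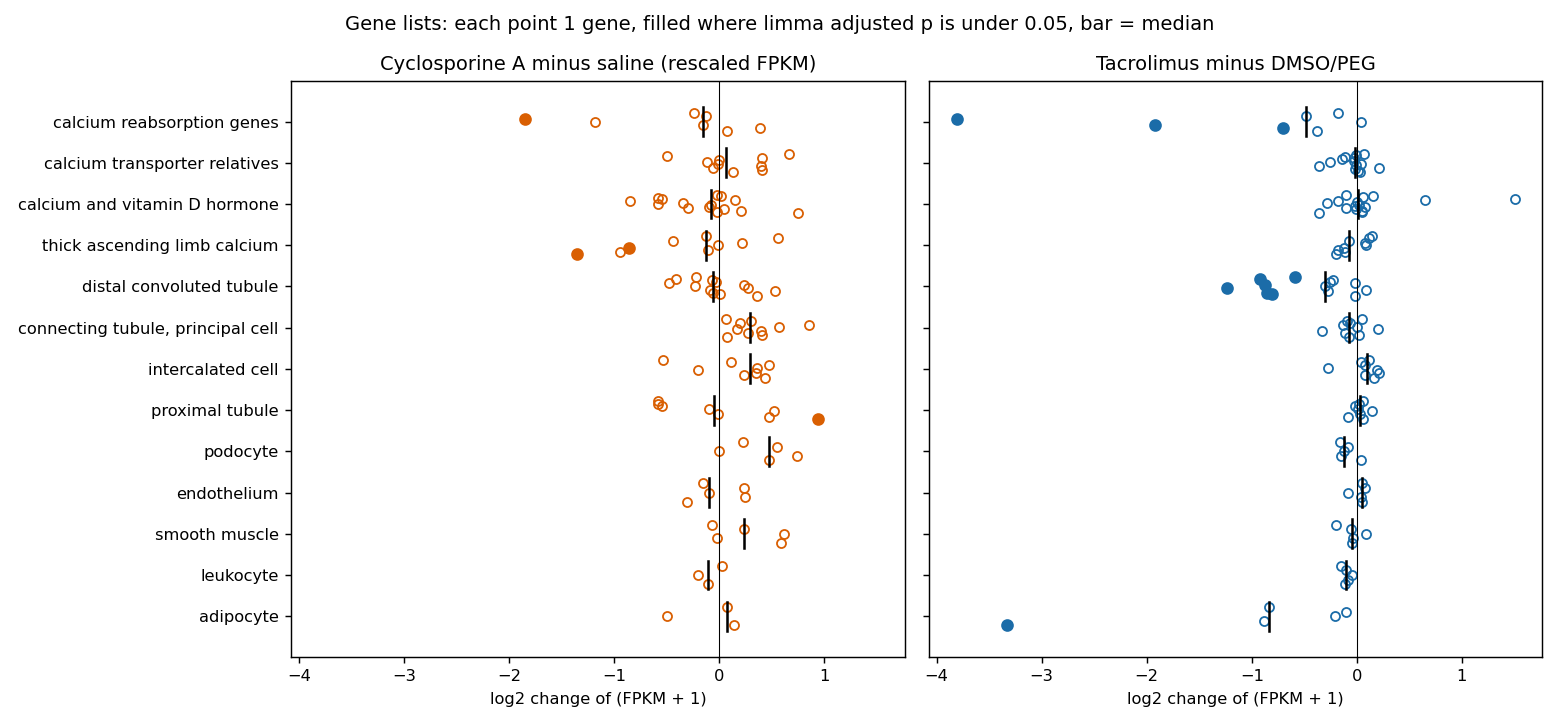
Each circle is 1 tested gene of a list, the horizontal axis is its log2 change of (FPKM + 1), drug minus vehicle, filled circles have a limma adjusted p under 0.05 and the bar is the list's median. With tacrolimus the filled circles are 3 calcium reabsorption genes, 6 distal convoluted tubule markers and 1 adipocyte marker; with cyclosporine A they are Calb1, 2 thick ascending limb genes and 1 proximal tubule marker.

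The genes most like Calb1 over the 20 libraries, by the root mean square difference of log2(FPKM + 1) minus the mean of the own vehicle group, were Scd (1.05), Slc8a1 (1.32) and the unnamed locus AABR07018447.1 (1.36), among 13389 genes compared. Scd, a fatty acid desaturase, averaged 18.8 FPKM with DMSO/PEG and 1.80 with tacrolimus (log2 change -2.97, limma adjusted p = 0.0378), and was not called with cyclosporine A (-1.02, 0.422). AABR07018447.1 went from 7.74 to 1.17 FPKM with tacrolimus (-2.04, limma adjusted p = 9.93e-05). The genes most like Slc8a1 were Sfrp2 (0.393), a secreted Wnt modulator, Fasn (0.478), fatty acid synthase, and Cidea (0.532), a lipid droplet protein. With tacrolimus Sfrp2 changed by -1.51 (limma adjusted p = 1.04e-04), Fasn by -1.29 (9.53e-05) and Cidea by -1.36 (0.0288). With cyclosporine A they changed by -0.56 (limma adjusted p = 0.127), -0.37 (0.483) and 0.23 (0.768). Likeness was measured on these same libraries, so a fall with tacrolimus follows from how the genes were chosen, and their p-values add no separate support. Of the 5 adipocyte markers given above, all 5 had a log2 change below 0 with tacrolimus (median -0.84), 3 had an unadjusted p under 0.05 and 1, Ucp1, was called, and their part in the likeness was not tested.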

How the data were processed

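Whole-kidney RNA of 20 samples was sequenced after NEBNext library preparation, per the labels' protocols. HISAT2 and rn6 are named in the submitters' processing notes, and the counting program, annotation and strand setting are not given in the sources used here. The authors deposited 2 tables of values that are FPKM, judged from the values. For tacrolimus and its vehicle, 100% of values above 0 gave whole fragments (within 0.001) with the listed length, and the values already carried a median-of-ratios scaling. For cyclosporine A and its vehicle, 74.1% did, 4445 genes needing a shorter length, with no scaling between libraries. That table was divided by median-of-ratios size factors over 12404 nuclear genes. Genes with at least 10 fragments in 4 libraries (6 with tacrolimus) and 15 in total were tested. Differences of log2(FPKM + 1) were tested with limma 3.58.1 (R 4.3.3), with trend and Benjamini-Hochberg adjustment, each table alone. The difference between drugs used both standard errors and Satterthwaite degrees of freedom. Marker ratios were tested by exact permutation (SciPy 1.17.1, Python 3.11.15). The fit was also run on simulated counts with the same dispersion for every gene, a setting simpler than these data, and its outcome is not used here.

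The members and lists were chosen with earlier results of these data known. Always named were the members, Slc12a3, Trpv6, Pth1r, Kl, Casr, Cyp24a1 and Cyp27b1, with up to 4 called genes of each list by smallest p and the 3 genes most like Calb1 and Slc8a1. Pvalb was named after its values were seen. Pecam1 was not matched and Klk1 was left out, its name being carried by several identifiers. Alternatives covered scaling, pseudocount, filter, trend, voom on recovered fragments, a replicate block, voom for the difference between drugs (chosen after seeing the data), the marker reference and each library left out.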

Additional observations from a re-analysis of the deposited data

Results flagged for a closer look

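The Calb1 level of tacrolimus replicate 6, 14.9 FPKM, stood above the other 5 tacrolimus libraries by 0.705 of the group's range, past the limit of 0.625 for 6 samples. Of 28 groups of member values looked at this way, it was the 1 past its limit, and chance passes about 1 in 20. It remained far below the lowest DMSO/PEG library, 171 FPKM.

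Under the test of the difference, the change with cyclosporine A on rescaled FPKM stood above the change with tacrolimus by 1.96 for Calb1 (limma-based adjusted p = 0.00875), 1.76 for Slc8a1 (7.06e-05) and 1.09 for Trpv5 (0.012), on the log2(FPKM + 1) scale. On that scale an equal fold with both drugs would already give 0.22, 1.27 and 0.46. With voom on recovered fragments, where this does not apply, the differences were 1.92 (limma-based adjusted p = 0.00197), 1.78 (0.0287) and 2.32 (0.00989).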

How the results depend on the processing

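With tacrolimus, all 19 alternatives kept Calb1, Slc8a1 and Trpv5 called lower, with 36 to 49 genes called in all. The log2 change of S100g ran from -0.0343 to 0.116 with a library left out, below 0 without DMSO/PEG replicate 2 or 6 or tacrolimus replicate 5. With cyclosporine A, 82 genes were called on rescaled FPKM, 10911 on deposited FPKM, 270 with voom, 1 without a filter and 6 with the replicate block, and 1 to 139 with a library left out (15, 28, 3 and 1 without saline replicates 1 to 4, 26, 95, 18 and 139 without cyclosporine A replicates 1 to 4). Members called were 6 on deposited FPKM, 0 without a filter, 0 with the replicate block and 0 to 1 with a library left out. Trpv5 (-0.0511) and Vdr (-1.02) reversed on deposited FPKM, and Vdr ran from -0.0254 to 0.162 with a library left out, below 0 without saline replicate 3 or 4. For the difference between drugs, 220 genes were called against 10068 on deposited FPKM, with 6 members, and 27 to 264 with a library left out (44, 74, 79 and 27 without saline replicates 1 to 4, 95 without cyclosporine A replicate 1); Atp2b4 (-0.24) and Vdr (-0.64) reversed on deposited FPKM, and Atp2b1 ran from -0.133 to 0.0140 with a library left out, above 0 without cyclosporine A replicate 4. Ratios reversed for Vdr with cyclosporine A against the markers' median (-0.0798) or Slc12a3 (-0.21), and with tacrolimus for Trpv5 against Slc12a3 (0.17) and for Atp2b4 against the median (0.14) or Slc12a3 (0.69). With tacrolimus the ratios of Atp2b4 and Vdr passed the threshold against Slc12a3 alone. The ratio of Atp2b4 ran from -0.152 to 0.0209 with a library left out, above 0 without DMSO/PEG replicate 4 or tacrolimus replicate 4. The cause of these shifts was not tested.

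Same-numbered libraries correlated by -0.149 to 0.212 in the cyclosporine A table (1 of 4 best with its own number) and -0.151 to 0.182 in the tacrolimus table (2 of 6), so numbers were not read as pairs. With the replicate block Calb1 had an adjusted p of 0.0628 with cyclosporine A, and 44 genes were called with tacrolimus and 184 for the difference. With cyclosporine A, 25 to 149 fragments for Slc8a1, 21 to 127 for Trpv5 and 0 to 214 for S100g limit what could be detected.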
